A study of Mus musculus with 288 samples.

Results

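The natriuretic peptide system was followed through 7 genes, the peptide precursors Nppa, Nppb and Nppc, the receptors Npr1, Npr2 and Npr3, and the protease gene Corin. They were taken by name from expression tables of 35904 genes, in which all 7 had a row. RNA had been sequenced from the heart, lung, liver, kidney, muscle and cerebellum of male, wild-type C57BL/6J mice that were 8 weeks old. One group was exposed for 7 days to intermittent hypoxia (IH), in which inspired O2 cycled between 21 and 8% in the light phase, and the other group stayed in normoxia. Both groups then spent 2 days in constant darkness in normoxia, and tissues were taken on the second of these days at 8 times, 3 hours apart. Each time point had 3 replicates, each from its own mouse, so that every tissue had 24 normoxia and 24 IH libraries, 288 in all. Values are TPM, a count of transcripts scaled to a fixed total per library and corrected for transcript length, so that genes can be compared. The study's methods give a typical depth over all libraries, but the number of reads behind each library is unknown here, and which organs came from the same mouse is not recorded in the labels.

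Atrial and B-type natriuretic peptides, the products of Nppa and Nppb, are hormones that heart muscle releases when it is stretched. Both act on Npr1, a receptor that makes cyclic GMP and through it relaxes vessels and promotes the excretion of salt and water by the kidney. Corin is the membrane protease that cleaves the precursor of atrial natriuretic peptide. C-type natriuretic peptide, made from Nppc, acts locally and mainly through the related cyclase receptor Npr2, while Npr3 has no cyclase domain and clears all of these peptides.

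The labels of the tissues were checked against marker genes. The summed markers of cardiomyocytes, lung epithelium, hepatocytes, kidney tubule, skeletal muscle and cerebellar neurons were each highest in the tissue that carries the name. Of the lists for cell types that several organs share, that of podocytes was highest in the lung and that of adipocytes in the muscle, so that neither marks 1 organ. Some libraries stood apart. The liver library of IH replicate 2 at 13:30 held 7760 TPM of 8 cardiomyocyte markers, against at most 98.4 TPM in the other 23 IH livers. In the cerebellum the same sum ran from 81.6 to 3886 TPM in normoxia and from 86.2 to 8768 TPM after IH. The 2 heart libraries of replicate 2 at 7:30 held 146 TPM (normoxia) and 118 TPM (IH) of 5 atrial markers, where the group medians were 1732 and 2092 TPM. More genes were above 0 TPM in normoxia than in IH hearts, 25124 ± 1719 against 21447 ± 688 (SD, n = 24 each), and fewer in normoxia than in IH lungs, 22694 ± 737 against 25455 ± 1529.

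Nppa was by far the most abundant of the 7 transcripts and was a transcript of the heart. In normoxia it stood at 2132 ± 1028 TPM in the heart (SD, n = 24), followed by the cerebellum with 150 ± 138, lung with 43.2 ± 28.3, liver with 1.94 ± 1.64, muscle with 1.37 ± 0.994 and kidney with 0.111 ± 0.0663. Neighbours in this order differed in mean log2 level except the liver and the muscle (permutation test within time points, 2-sided, adjusted p = 0.249 over 35 comparisons). Heart and cerebellum overlapped only through the normoxia heart of replicate 2 at 7:30, which was low in atrial markers and held 195 TPM. The highest normoxia cerebellum held 456 TPM and the second-lowest normoxia heart 1131 TPM. Nppb followed with 174 ± 74.1 TPM in the heart and 17.0 ± 15.4 in the cerebellum, and its mean was at most 0.389 TPM in the other tissues in normoxia. The lung stood just above the liver (adjusted p = 0.0248), and the liver and the muscle, at 0.211 TPM each, were not told apart (adjusted p = 0.929). Of 24 kidneys in normoxia, 19 were listed at 0 for Nppb.

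**Figure D1:**
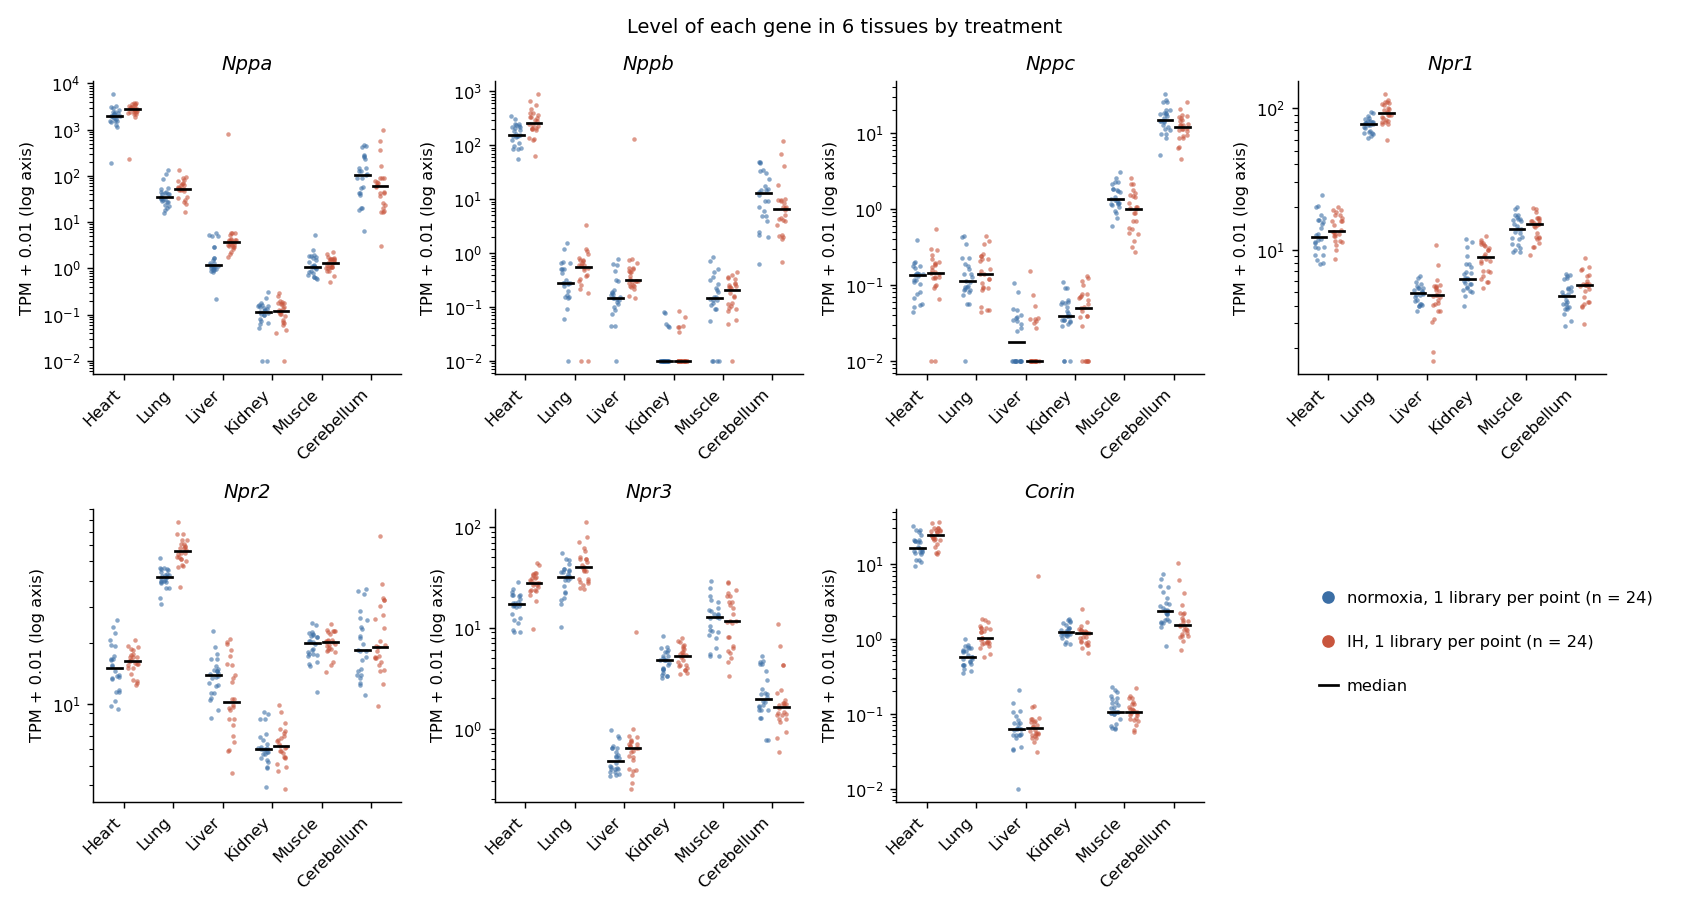
Level of each gene in 6 tissues, as TPM + 0.01 on a log axis, with 1 point per library (n = 24 per tissue and treatment) and the median as a bar. Nppa, Nppb and Corin were highest in the heart, Nppc in the cerebellum and the receptors in the lung; 1 IH liver stood far above the others for Nppa, Nppb, Npr3 and Corin.

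Nppa and Nppb are neighbours on chromosome 4. In GENCODE M21 (GRCm38) Nppb lies at chr4:147985788-147987205 and Nppa at chr4:148000722-148002079, both on the plus strand and 13516 bases apart. An antisense gene, Gm13054, overlaps Nppa, and since the strand setting of the quantification is not given in the sources used here, its reads cannot be told apart from those of Nppa. Only Nppb passed the test for a change with IH in the heart, and whether its change differs from that of Nppa was not tested. Sequence before the start of both genes is shown because they lie side by side and are both highest in the heart. It is from RefSeq (GRCm38.p6, plus strand, all 7 genes matched), with capitals for matches to the letters TATAAA, to the GATA motif (AGATAA, or AGATAG, or TGATAA, or TGATAG) and to the M-CAT motif (letters CATTCC), searched on both strands. For Nppa the 250 bases before the start are given, and for Nppb the stretch that holds its GATA and M-CAT matches.
Nppa, chr4:148000472-148000721: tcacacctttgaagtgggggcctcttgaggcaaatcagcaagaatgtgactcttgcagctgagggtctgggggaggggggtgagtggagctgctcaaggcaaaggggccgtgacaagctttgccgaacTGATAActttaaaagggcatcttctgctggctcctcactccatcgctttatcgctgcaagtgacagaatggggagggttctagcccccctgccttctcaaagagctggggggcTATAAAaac
Nppb, chr4:147985795-147985821: GGAATGcagcTGATAAatcagAGATAA
The Nppa window held 1 GATA motif, at position -122 from the start, and TATAAA at -9. The Nppb window held GATA motifs at -95 and -84, an M-CAT motif at -105 on the minus strand and TATAAA at -31, with no overlap between them. Among 32851 promoters of 300 bases, 29.8% held a GATA motif, 14.7% CATTCC and 13.6% TATAAA. GENCODE starts Nppb 112 bases upstream of the RefSeq start, so that these matches of Nppb lie inside the longer annotated transcript.

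Nppa tracked atrial marker transcripts across hearts. Its correlation with the sum of Myl7, Myl4, Sln, Bmp10 and Kcnj3 was r = 0.957 in normoxia and 0.981 after IH (log2 scale, n = 24 each; rho = 0.850 and 0.814; permutation p = 1e-05 for r in both, the smallest the resamples can give; adjusted p = 3.11e-05 over 28 relations). Without the 2 libraries farthest from the median, r was 0.79 in both groups. The hearts of replicate 2 at 7:30, which were low in atrial markers, were also the lowest for Nppa, at 195 TPM in normoxia and 233 TPM after IH, and the normoxia heart of replicate 2 at 22:30, with 5090 TPM of atrial markers, was the highest at 5795 TPM. For Nppb the relation was weak and did not pass the test (r = 0.13 and 0.14, permutation p = 0.543 and 0.459, adjusted p = 0.585 and 0.535), and neither did that between Nppa and Nppb by Pearson's r (r = 0.302 and 0.230, permutation p = 0.154 and 0.258, adjusted p = 0.196 and 0.314), although rho in normoxia was 0.489 (adjusted p = 0.0279). Nppb instead went with a list of transcripts known to rise in loaded hearts, the sum of Myh7, Acta1, Ankrd1, Ccn2 and Il1rl1, with r = 0.610 in normoxia and 0.739 after IH (permutation p = 0.00166 and 5e-05, adjusted p = 0.00266 and 0.000108; rho = 0.561 and 0.630; r = 0.581 and 0.583 without the 2 farthest libraries). For Nppa and that list over all hearts the test was not passed (r = -0.015 and -0.021, permutation p = 0.947 and 0.928, adjusted p = 0.947 in both), although r was 0.499 in normoxia without the 2 farthest libraries. For Npr3 and the atrial markers, r was 0.45 in normoxia and 0.68 after IH (adjusted p = 0.0331 and 0.0382), but 0.17 and -0.20 without the 2 farthest libraries, so that this relation rests on them.

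Outside the heart, Nppa moved with cardiomyocyte transcripts. In the cerebellum the correlation of Nppa with the sum of Myh6, Tnnt2, Tnni3, Actc1, Ryr2, Pln, Myl3 and Csrp3, was r = 0.999 in normoxia and 0.988 after IH (n = 24 each, permutation p = 1e-05, adjusted p = 3.11e-05; rho = 0.998 and 0.997; r = 0.9997 and 0.980 without the 2 farthest libraries), and that of Nppb was 0.997 and 0.993. The 10 relations of the cerebellum, among the 28, were added after the data were seen. Nppa amounted to 11.3% and 11.2% of that sum at the median in normoxia and IH cerebella, and to 8.29% and 10.55% in the hearts. The 2 cerebella with the smallest sums, 81.6 and 86.2 TPM, held 6.41 and 3.08 TPM of Nppa. Npr3 and Corin of the cerebellum also went with the sum in normoxia (r = 0.865 and 0.764, adjusted p = 3.11e-05 and 5.09e-05) and after IH (r = 0.685 and 0.715, adjusted p = 0.000784 and 0.00054), but after IH r was 0.310 and 0.346 without the 2 farthest libraries. In the liver r of Nppa was 0.882 in normoxia and 0.98 after IH, the latter 0.527 without the 2 farthest libraries, and in the lung 0.750 and 0.757 (adjusted p at most 0.000108 in these 4). In the muscle the same sum averaged 1293 TPM in normoxia with Nppa at 0.109% of it at the median; some of its markers, such as Myl3 and Csrp3, are also transcripts of slow skeletal muscle. The part of cardiac transcripts in the levels of other organs was not tested.

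**Figure D2:**
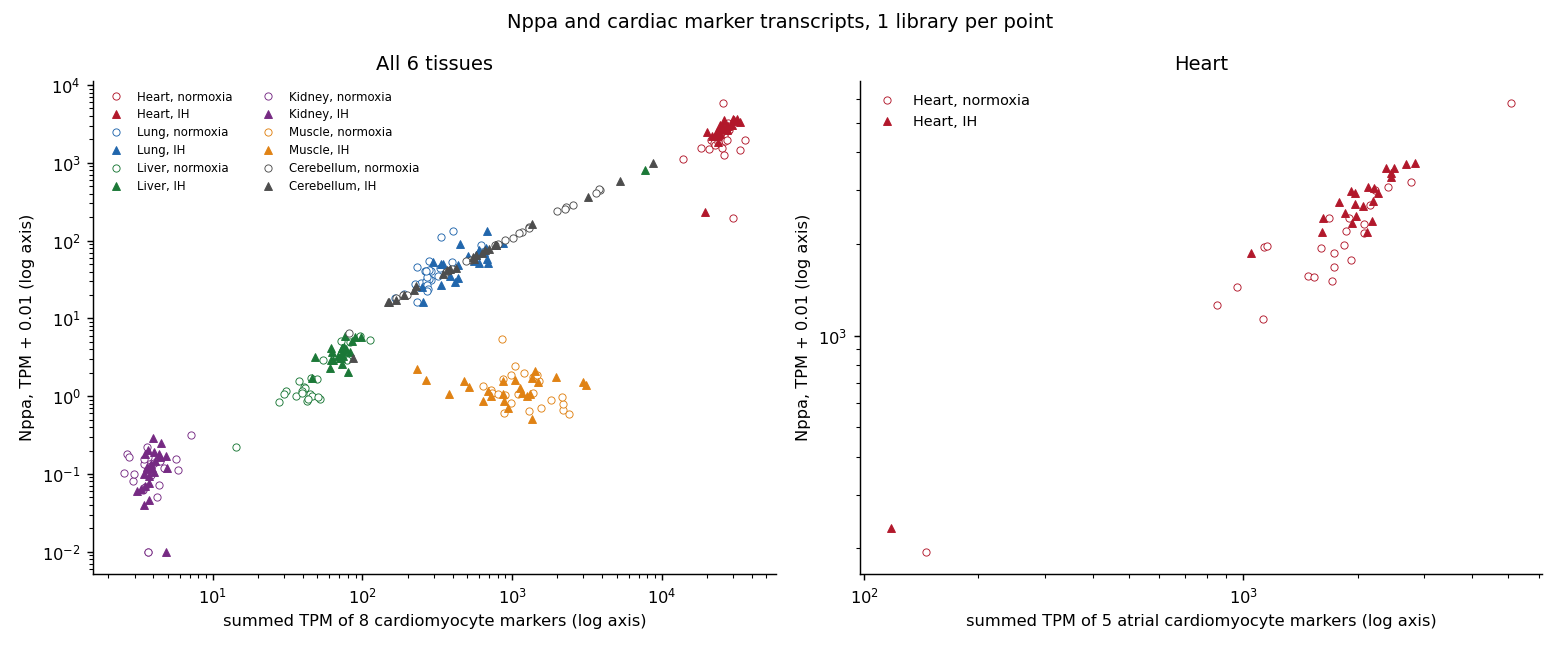
Nppa, as TPM + 0.01, against summed TPM of 8 cardiomyocyte markers in all tissues (left) and of 5 atrial markers in the heart (right), both axes log, 1 point per library, open circles for normoxia and filled triangles for IH. Cerebellum and liver libraries lie along a line towards the heart, the muscle lies below it, and the 2 hearts low in atrial markers (146 and 118 TPM) are the lowest for Nppa.

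Nppc was a transcript of the cerebellum, at 16.3 ± 6.39 TPM in normoxia. The muscle held 1.51 ± 0.609 TPM, and the lung (0.142), heart (0.121), kidney (0.0359) and liver (0.0178) were at most 0.142 TPM. The cerebellum and the muscle did not overlap, and neither did the muscle and the lung. Lung and heart were not told apart (adjusted p = 0.530). Nppc lies at chr1:86666291-86670571 on the minus strand, with no annotated gene overlapping it. In the 24 normoxia cerebella Nppc went with the cardiomyocyte sum (r = 0.613, permutation p = 0.00153, adjusted p = 0.00266; rho = 0.715), whereas after IH the test was not passed (r = -0.388, permutation p = 0.0607, adjusted p = 0.0809); whether the 2 relations differ was not tested.

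All 3 receptors were highest in the lung. Npr1, the receptor of atrial and B-type peptides, stood at 76.7 ± 8.89 TPM in the normoxia lung, followed by muscle with 14.1 ± 3.11, heart with 13.4 ± 4.30, kidney with 6.79 ± 2.07, liver with 4.91 ± 0.753 and cerebellum with 4.76 ± 1.10. The lung did not overlap with any other tissue, while muscle and heart (adjusted p = 0.408) and liver and cerebellum (adjusted p = 0.521) were not told apart by the test. Npr2, the receptor of C-type peptide, had the narrowest range as a fold between the highest and lowest tissue mean. It went from lung with 41.7 ± 4.54 TPM through cerebellum with 20.5 ± 7.56, muscle with 19.4 ± 3.14, heart with 15.6 ± 4.41 and liver with 13.9 ± 3.17 to kidney with 6.29 ± 1.31. Cerebellum and muscle (adjusted p = 0.929) and heart and liver (adjusted p = 0.215) were not told apart. The clearance receptor Npr3 was led by the lung with 32.1 ± 10.51 TPM, then heart with 17.0 ± 4.95, muscle with 13.0 ± 6.04, kidney with 4.75 ± 1.24, cerebellum with 2.43 ± 1.33 and liver with 0.515 ± 0.171, and every step of this order passed the test, the closest being heart over muscle (adjusted p = 0.0116). In the lung, Npr1 thus exceeded Npr3 in level, whereas in the heart Npr3 was the higher of the pair by mean. Npr1 lies at chr3:90450591-90465866 on the minus strand, Npr2 at chr4:43631935-43651244 on the plus strand and Npr3 at chr15:11839896-11907287 on the minus strand, and each has an annotated gene on the opposite strand (Gm16048, Gm12473 and Gm5144).

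Corin, like the peptide precursor it cleaves, was highest in the heart. It stood at 18.3 ± 6.12 TPM in the normoxia heart, followed by cerebellum with 2.86 ± 1.60, kidney with 1.28 ± 0.279, lung with 0.589 ± 0.166, muscle with 0.111 ± 0.0463 and liver with 0.0610 ± 0.0406. Each step of this order passed the test (adjusted p at most 0.000198), and the heart did not overlap with the cerebellum. In the heart the relation of Corin with the atrial markers did not pass the test in normoxia (r = 0.147, permutation p = 0.508, adjusted p = 0.569) but did after IH (r = 0.531, permutation p = 0.00171, adjusted p = 0.00266; 0.474 without the 2 farthest libraries); the difference was not tested. Corin spans chr5:72300025-72504473 on the minus strand and is overlapped by Gm20647 and the pseudogene Gm19560 on the opposite strand and by AU023070, Gm25768 and Gm23712 on its own, whose reads may not be told apart from it. Over the 7 genes, 28 of the 35 neighbouring pairs of tissues differed. Some of these lay near 0 TPM, such as Nppc of the kidney (0.0359) and the liver (0.0178). Neighbours were set by the same means that were then compared, and libraries of different organs were treated as independent.

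The change with IH was tested over all time points for every gene whose mean reached 1 TPM in the organ, on TPM scaled between libraries (limma, log2 scale, adjustment over all genes tested in that tissue). Of the 42 pairs of a gene and a tissue, 30 passed this filter and 7 passed an adjusted p of 0.05, of which 6 were higher and 1 lower after IH. By tissue these were 3 of 6 pairs tested in the heart, where 45.2% of all genes passed (28% as higher), 1 of 4 in the lung (70.4%, and 28.9% as higher), 1 of 4 in the liver (24.2%, and 10.9% as higher), 1 of 4 in the kidney (19.8%, and 8.25% as higher), 1 of 5 in the muscle (10.4%, and 4.89% as lower) and 0 of 7 in the cerebellum (15%). In the cerebellum limma gave 2 of the pairs at an unadjusted p under 0.05, Npr1 (p = 0.0426) and Nppc (p = 0.046), and without the library of IH replicate 3 at 1:30, which held the highest cardiomyocyte sum, Corin of the cerebellum passed as lower (-0.54, limma adjusted p = 0.0204). The other 12 of the 42 pairs were under the filter. Of the 7, heart Nppb, heart Npr3 and liver Nppa also reached 1.5-fold, where 2.95% of heart genes and 3.65% of liver genes did. The 7 calls became 4 without replicate number 1, 5 without number 2 and 12 without number 3. In the last case heart Corin and muscle Nppc were lost, and Nppa, Nppb, Nppc and Corin of the cerebellum, Corin of the kidney and Npr2 of the heart and liver passed, all of them lower after IH. The median log2 change of all genes was 0.04 in the heart and -0.01 in the liver on scaled TPM, and 0.15 and -0.12 on TPM as deposited. Ranges, and counts of libraries above or below the other group, are given in TPM as deposited, while log2 changes are on scaled TPM unless stated. Marker sums used as further terms are the log2 of sums in TPM as deposited. They are thus not on the scale of the values fitted. In bulk tissue, fewer cells of a type and less RNA per cell cannot be told apart.

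**Figure D3:**
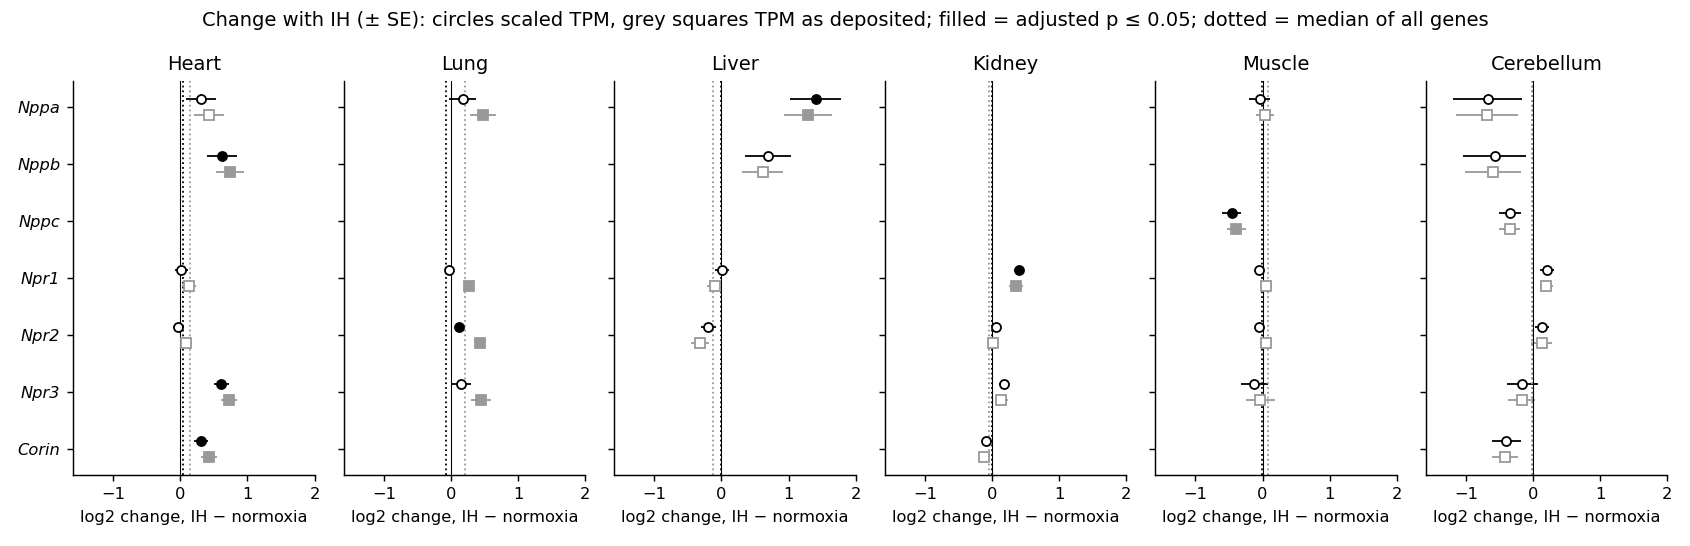
Log2 change, IH minus normoxia, of each gene tested in each tissue (± SE, 24 against 24 libraries), from scaled TPM (circles) and from TPM as deposited (squares), filled where the adjusted p was at most 0.05; dotted lines give the median of all genes. Heart Nppb, Npr3 and Corin, liver Nppa and kidney Npr1 were higher and muscle Nppc lower on both scales, while lung values depend on the scale.

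In the heart, Nppb rose with IH. It ran from 54.6 TPM through a median of 158 to 352 TPM in normoxia, and from 64.3 through 262 to 880 TPM after IH. The groups overlapped, with 20 of 24 IH hearts above the normoxia median and 7 above the highest normoxia heart. The mean was 174 ± 74.1 against 311 ± 186 TPM (SD), a log2 change of 0.62 (SE 0.22, limma adjusted p = 0.0204), and the IH mean was higher at 7 of 8 time points. Within replicate numbers 1, 2 and 3 the log2 change was 0.35, 0.77 and 0.73, and without number 1 or 2 the call was lost (adjusted p = 0.0592 and 0.129 in limma). Nppa pointed the same way without passing the test. Its lowest, median and highest values were 195, 1962 and 5795 TPM in normoxia and 233, 2750 and 3688 TPM after IH. In TPM as deposited, 22 of 24 IH hearts were above the normoxia median and the IH mean was higher at 8 of 8 time points. On scaled TPM the IH mean was higher at 5 of 8, and the log2 change was 0.30 (SE 0.23, limma adjusted p = 0.281). Without the 2 hearts of replicate 2 at 7:30 it was 0.29 (limma adjusted p = 0.0844), and with the atrial marker sum as a further term 0.12 (limma adjusted p = 0.252). Nppb changed by 0.60 with the same term (limma adjusted p = 0.0270).

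Npr3, the clearance receptor, had the lowest adjusted p of the 6 genes tested in the heart. It ran from 9.05 through 17.1 to 28.6 TPM in normoxia and from 9.60 through 27.9 to 43.5 TPM after IH. All but 1 IH heart, that of replicate 2 at 7:30, lay above the normoxia median, and 11 lay above the highest normoxia heart. The log2 change was 0.61 (SE 0.11, limma adjusted p = 3.33e-05), with higher means at 8 of 8 time points and changes of 0.77, 0.23 and 0.81 within replicate numbers 1, 2 and 3. The cyclase receptors did not pass the test, with changes of 0.01 (SE 0.10) for Npr1 and -0.03 (SE 0.08) for Npr2. Corin ran from 9.48 through 16.6 to 32.0 TPM in normoxia and from 13.4 through 24.1 to 36.4 TPM after IH, a log2 change of 0.30 (SE 0.11, limma adjusted p = 0.0181) with most of both ranges shared. Without number 1 or 3 Corin did not pass (log2 changes 0.29 and 0.19, limma adjusted p = 0.105 and 0.19).

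Other transcripts differed between the same hearts. Of 6 endothelial markers 5 were higher after IH, their sum running from 124 to 319 TPM in normoxia and from 209 to 377 TPM after IH. Of 5 smooth muscle markers 4 were higher and Smtn lower, with sums of 153 to 361 TPM and 154 to 464 TPM. The cardiomyocyte sum ran from 13901 to 35963 TPM in normoxia and from 19606 to 33436 TPM after IH, with 2 of 8 markers higher and 0 lower. The sum of 5 adipocyte markers ran from 21.2 through 186 to 1341 TPM in normoxia and from 20.7 through 356 to 1148 TPM after IH, and 0 of 5 passed the test, with a median log2 change of 0.91. Lung epithelium markers reached 1988 TPM in normoxia and 640 TPM in IH hearts with medians of 0.997 and 0.546 TPM, and Sftpc and Cldn18 had a median of 0 TPM after IH, where no marker of the other 4 lists did. The part of these transcripts in the changes of Npr3, Nppb and Corin was not tested. With the number of genes above 0 TPM as a further term, which also differed between the heart groups, none of the 3 passed: Npr3 changed by 0.15 (limma adjusted p = 0.692), Nppb by 0.11 (adjusted p = 0.900) and Corin by -0.24 (adjusted p = 0.429), so that treatment and the number of detected genes cannot be told apart for them.

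**Figure D4:**
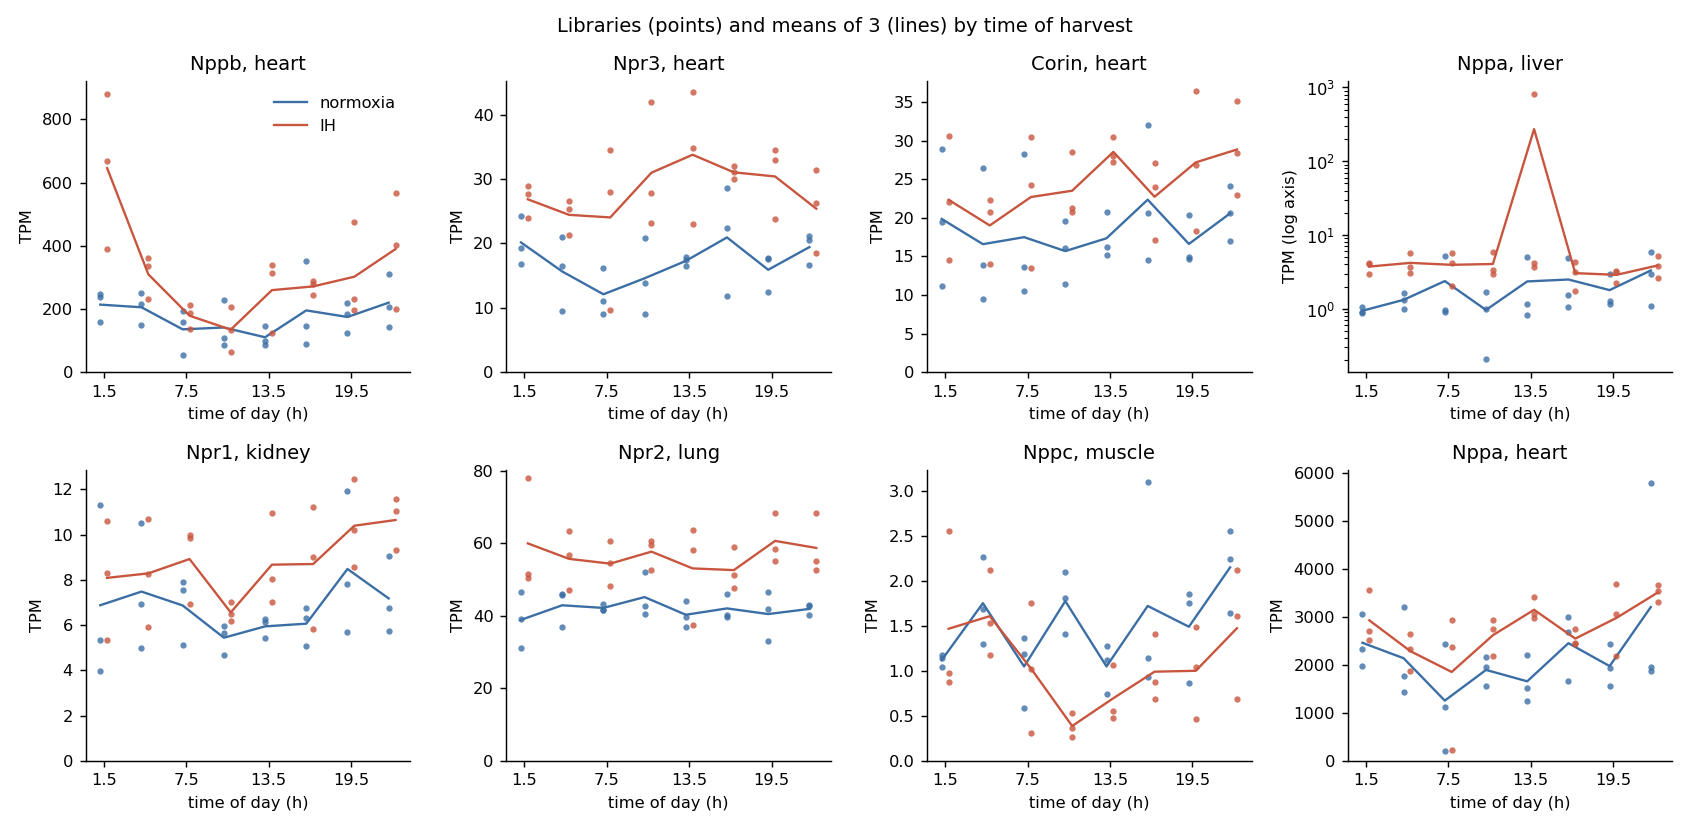
TPM by time of harvest for the 7 pairs that passed the test and for heart Nppa, with points for libraries and lines for the mean of 3, normoxia in blue and IH in red; the axis of liver Nppa is logarithmic. Heart Npr3, kidney Npr1 and lung Npr2 were higher after IH at 8 of 8 time points, and 1 liver library lies far above the others at 808 TPM.

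In the liver, Nppa rose from a low level. It ran from 0.209 through 1.15 to 5.89 TPM in normoxia and from 1.72 through 3.71 to 808 TPM after IH, and all 24 IH livers lay above the normoxia median, although only 1 lay above the normoxia maximum. The log2 change was 1.40 (SE 0.39, limma adjusted p = 0.00624), and 1.05 (limma adjusted p = 3.01e-05) without the liver of replicate 2 at 13:30. Within replicate numbers 1, 2 and 3 it was 1.64, 2.33 and 0.23, and without number 1 the call was lost (adjusted p = 0.241 in limma). Cardiomyocyte markers rose in the same livers, 6 of 7 tested, all of these past 1.5-fold (Myh6 by 1.46 and Tnnt2 by 1.36 on the log2 scale), and the median sum went from 43.9 to 73.4 TPM. With that sum as a further term the change of Nppa was 0.30 (limma adjusted p = 0.0784). Both this fit and the marker changes include the liver of replicate 2 at 13:30, and the fit was not run without it. Kidney tubule markers were higher in IH livers too, 3 of 3 tested, with a median sum of 3.36 TPM in normoxia and 82.4 TPM after IH; their part in the result was not tested. Nppb of the liver was low in both groups, with medians of 0.139 and 0.310 TPM. After IH 23 of 24 livers lay above the normoxia median and means were higher at 8 of 8 time points. It came over the filter only through the liver of replicate 2 at 13:30, which held 129 TPM where the other IH livers held at most 0.777 TPM, and did not pass the test (log2 change 0.69, SE 0.34, limma adjusted p = 0.126), but did with a pseudocount of 0.1 (1.18, limma adjusted p = 0.0319). Without that liver the IH mean was 0.373 TPM, against 0.211 TPM in normoxia.

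The kidney showed its change in Npr1, the receptor through which the peptides act on salt excretion. Npr1 ran from 3.97 through 6.19 to 11.9 TPM in normoxia and from 5.36 through 8.78 to 12.4 TPM after IH. The ranges overlapped almost fully, yet 20 of 24 IH kidneys lay above the normoxia median. The log2 change was 0.40 (SE 0.08, limma adjusted p = 0.000333), with higher means at 8 of 8 time points and changes of 0.05, 0.58 and 0.58 within replicate numbers 1, 2 and 3. Npr3 changed by 0.18 (SE 0.07, limma adjusted p = 0.0655) and passed with time point as a further term (limma adjusted p = 0.0171) or without number 1 (0.23, limma adjusted p = 0.0392). Npr2 changed by 0.06 (SE 0.05) and Corin by -0.09 (SE 0.06). All 5 podocyte markers were higher in the same IH kidneys (Synpo by 0.54 and Nphs1 by 0.43 on the log2 scale), their sum running from 50.04 to 111 TPM in normoxia and from 65.1 to 126 TPM after IH, whereas 1 of 6 endothelial and 0 of 5 smooth muscle markers passed. The podocyte list was not particular to the kidney, since its mean sum in normoxia was 191 TPM in the lung against 77.4 TPM in the kidney, and 3 of 3 tested were higher in IH hearts too. Of 5 adipocyte markers 2 were higher in IH kidneys, with median sums of 333 TPM in normoxia and 408 TPM after IH. The part of these transcripts in the change of Npr1 was not tested. Nppa and Nppb were near 0 TPM in the kidney in both groups.

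In the lung the answer depended on the scale. On scaled TPM only Npr2 passed, with a log2 change of 0.13 (SE 0.05, limma adjusted p = 0.0117), against a median of -0.08 over all genes. Npr2 ran from 31.0 through 41.9 to 52.2 TPM in normoxia and from 37.5 through 56.0 to 78.0 TPM after IH, and 17 of 24 IH lungs lay above the highest normoxia lung in deposited TPM. On TPM as deposited, where the median of all genes was 0.21, Npr1 (0.28), Npr2 (0.43), Npr3 (0.45) and Nppa (0.47) all passed, as did 65.7% of all genes, while on scaled TPM Npr1 was at -0.03 (SE 0.05), Npr3 at 0.15 (SE 0.15) and Nppa at 0.17 (SE 0.21). Without number 1, the change of Npr2 on scaled TPM was 0.050 and did not pass (limma adjusted p = 0.429). It did not pass either with the number of detected genes as a further term (0.06, limma adjusted p = 0.456), where Npr3 of the lung did (0.81, limma adjusted p = 0.000754), or with the cardiomyocyte sum (0.10, limma adjusted p = 0.151). Other lung markers differed as well: 5 of 5 of the epithelium were lower, with sums of 133390 to 261960 TPM in normoxia and 33464 to 201320 TPM after IH, and 5 of 6 of the endothelium, with 444 to 1487 and 603 to 1250 TPM, and their part in the change of Npr2 was not tested. Cardiomyocyte markers rose in the lung on scaled TPM, 7 of 8, and with their sum as a further term the change of Nppa was -0.80 (limma adjusted p = 0.000219). That sum, in TPM as deposited, averaged 291 TPM in normoxia and 507 TPM after IH. The term thus moved with treatment and also holds the difference in scale between the lung groups. Corin, at 0.589 ± 0.166 TPM in normoxia and 1.12 ± 0.354 TPM after IH, was under the filter; with no filter its log2 change was 0.37 (limma adjusted p = 6.76e-05).

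In the muscle Nppc was the only one of the 30 pairs that passed as lower on scaled TPM with all libraries. It ran from 0.592 through 1.33 to 3.09 TPM in normoxia and from 0.263 through 0.998 to 2.55 TPM after IH, and 7 of 24 IH muscles lay below the lowest normoxia muscle. The log2 change was -0.46 (SE 0.14, limma adjusted p = 0.0259), with lower means at 7 of 8 time points and changes of -0.17, -0.68 and -0.53 within replicate numbers 1, 2 and 3, and did not pass without number 2 or 3 (limma adjusted p = 0.254 and 0.143) or with no filter on low values (limma adjusted p = 0.0674). In the cerebellum, its main site, Nppc ran from 5.20 through 14.98 to 32.3 TPM in normoxia and from 4.49 through 12.2 to 25.3 TPM after IH, a change of -0.34 (SE 0.17) that did not pass (limma adjusted p = 0.158). Nppa and Nppb of the cerebellum had changes of -0.68 (SE 0.51) and -0.57 (SE 0.46), and of 0.06 and 0.10 with the cardiomyocyte sum as a further term, under which Npr1 of the cerebellum passed (0.26, limma adjusted p = 0.0398).

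Whether the response of a gene differed between tissues was tested for 57 combinations of a gene and 2 tissues, of which 16 passed, against 12.8% to 65.2% of all genes in the pairs of tissues. The change of Npr3 was larger in the heart than in lung, kidney, muscle and cerebellum, by 0.46 (SE 0.19), 0.43 (SE 0.14), 0.73 (SE 0.24) and 0.77 (SE 0.26) on the log2 scale (limma adjusted p at most 0.0278). That of Npr1 was larger in the kidney than in lung, heart, liver and muscle, by 0.43, 0.39, 0.39 and 0.45 (limma adjusted p at most 0.0194). Between kidney and cerebellum the difference for Npr1 was 0.20 (SE 0.13) and did not pass (limma adjusted p = 0.329). The tests between tissues were not run with the number of detected genes as a further term. With that term in the fits of single tissues, given above, the change of Npr3 was smaller in the heart than in the lung. The share of all genes whose response differed from that of the heart was 65.2% (lung), 35.2% (liver), 40.7% (kidney), 35.4% (muscle) and 27.9% (cerebellum). For the lung it was 52.6% (liver), 63.2% (kidney), 56.8% (muscle) and 49.8% (cerebellum), and for the liver 30.3% (kidney), 22.1% (muscle) and 22.3% (cerebellum). It was 20% between kidney and muscle, 12.8% between kidney and cerebellum, and 19.4% between muscle and cerebellum. The 16 became 5, 7 and 27 without replicate number 1, 2 and 3. The study's methods describe several tissues taken from the mice. Which organs shared a mouse is not recorded, so this could not be taken into account in these tests.

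Of 68 sets of a gene, a tissue and a treatment, 2 had a 24-hour cosine rhythm at an adjusted p of 0.05, both in hearts after IH, where 3.45% of all genes had one, against 0.558% in normoxia hearts. In normoxia and after IH the share was 6.8% and 3.37% in the lung, 14.4% and 2.33% in the liver, 18.6% and 5.38% in the kidney, 5.38% and 7.43% in the muscle and 0% and 0.00936% in the cerebellum. At an unadjusted p under 0.05 there were 14 sets. Nppb had an amplitude of 0.76 on the log2 scale, a peak-to-trough fold of 2.89, and peaked at 23.6 h (limma adjusted p = 0.0392). Its mean of 3 hearts was 646 ± 246 TPM at 1:30 and 134 ± 70.6 TPM at 10:30 after IH, and 214 ± 48.9 and 141 ± 75.8 TPM at the same times in normoxia. Npr1 had an amplitude of 0.20 and peaked at 20.9 h (limma adjusted p = 0.0416). In normoxia hearts p was 0.141 for Nppb and 0.531 for Npr1 before adjustment, and without any 1 replicate number 0 or 1 of the 68 sets passed. No difference in rhythm between treatments passed the test, and over 34 pairs tested limma gave 0 at an unadjusted p under 0.05; 0% of all genes passed that test in each tissue. A rank test against cosines gave 0 sets after adjustment and 6 at an unadjusted p under 0.05, among them heart Nppb and Npr1 after IH.

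Other genes of the pathway were counted in 5 lists, which hold the peptide-processing and clearing enzymes, the Npr3 ligand Ostn, the guanylin receptor and its ligands, soluble guanylyl cyclase, and the kinases, substrates and phosphodiesterases of cyclic GMP. Of their 22 genes, 15 were tested in the heart, and 11 were higher and 0 lower after IH, where 28% of all heart genes were higher. The pro-peptide convertases Furin (0.43) and Pcsk6 (0.50), the latter known to activate Corin, and the peptide-degrading Mme (0.48) were in this group, none past 1.5-fold. In the same hearts 5 of 6 endothelial markers were higher and 0 lower, and 4 of 5 smooth muscle markers were higher and 1 lower. Their part in the count of 11 was not tested. In the lung 3 of 18 were higher and 5 lower, where 28.9% and 41.5% of all genes were, with Kcnma1, a potassium channel, past 1.5-fold (1.31). In the liver 4 of 12 were higher and 2 lower, where 10.9% and 13.3% of all genes were, with Guca2b (1.51), Pde2a (0.74) and Rgs2 (0.65) past 1.5-fold. Guca2b stood at 0.409 and 1.70 TPM in the liver and at 701 TPM in the normoxia kidney, and kidney tubule markers were higher in the same IH livers. At most 1 gene in each direction passed in the kidney (15 tested), muscle (19) and cerebellum (16). Of the haemodynamic load list in the heart, Ccn2 (0.51) and Ankrd1 (0.31) were higher and Myh7 lower (-0.47), and Acta1 did not pass. Of the 6 cardiac transcription factors, Mef2c (0.33) and Srf (0.20) were higher in the heart, and Gata4, a factor that binds the GATA motif, was at 0.26 (limma adjusted p = 0.0533). Tbx5 was lower in the cerebellum (-0.85), a tissue where it stood at 2.67 TPM in normoxia.

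Genes whose pattern was most like each of the 7 were named from correlations, given as a description. Across 48 hearts, with treatment means removed, Nppa was most like the atrial genes Myl4 (r = 0.979), Mybphl (0.95) and Myl7 (0.942), Nppb most like Tnfrsf12a (0.906), Meox1 (0.85) and Rcan1 (0.837), and Corin most like Cacna2d1 (0.913), Chrm2 (0.906) and Kcnj5 (0.903). Across 48 lungs, Npr1 was most like Pygo2 (0.770), 1810010H24Rik (0.765) and H3c14 (0.743), Npr2 most like Dmwd (0.757), Zswim8 (0.729) and Pcnt (0.726), and Npr3 most like Mlec (0.828), Itga6 (0.819) and Xbp1 (0.817). Nppc in the 48 cerebella was most like Cdc42ep2 (0.876), Lgmn (0.842) and Nutf2-ps1 (0.840). Over the means of 6 tissues in normoxia, Nppa was most like Myh6, Tnnt2 and Tnni3 (r = 0.998, 0.998 and 0.997), Nppb like Mybpc3, Lrrc10 and Doc2g, Corin like Fhl2, Kcnip2 and Atp2a2, Nppc like Crtac1, Golga7b and Mab21l1, Npr1 like 9930111J21Rik1, Inpp5d and Kmt2d, Npr2 like Trafd1, Dhrs7 and Pltp, and Npr3 like Crispld2, Tmem45a and Loxl1. These libraries share tissue composition and scaling, and 14255 genes were compared over the 6 tissue means.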

How the data were processed

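The authors quantified reads of poly(A) RNA, prepared with a directional kit, with Kallisto against Ensembl release 102 (mm10 in the labels), and deposited TPM per gene for each of the 288 libraries. The submitters' processing notes also name FastQC 0.11.3. No counts are analysed here, and the depth of single libraries is unknown (the study's methods give a typical one), and p-values measure the spread between mice. Each library summed to between 989211 and 999188 TPM, and 0 pairs held shared values. TPM was scaled per tissue by the median of ratios, 0.5 was added as pseudocount and the log2 was used. Models were fitted with limma 3.58.1 in R 4.3.3, with treatment as the only term for IH, on genes whose mean reached 1 TPM, or cosine and sine terms of 24 hours for rhythm where the maximum reached 1 TPM. P-values were adjusted by Benjamini and Hochberg over all genes tested in a tissue. Tissue orders and correlations used 100000 permutations on TPM as deposited (Python 3.11.15, scipy 1.17.1). Functions were tested on simulated data. By the labels, replicate numbers are counted within a time point and name no shared mouse, day or batch. Some values nonetheless followed the number. In IH lungs Corin was higher in number 3 than in numbers 1 and 2 at every time point. The log2 change of cerebellum Nppa was -2.13, -1.26 and 1.37 within numbers 1, 2 and 3. What lies behind this is not recorded, and the main fits treat the libraries of a group as independent. Alternatives covered scaling, pseudocounts, filters, further terms and left-out libraries. Named genes were the 7 members, listed genes past an adjusted p of 0.05 and 1.5-fold, and the 3 genes most like each member; other listed genes with values were chosen after their values were seen. The members and lists were chosen with earlier results of these data known.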

Additional observations from a re-analysis of the deposited data

Results flagged for a closer look

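The response to IH of Corin, Nppa, Npr1, Npr2 and Npr3 differed between tissues by a test of the difference itself (limma, adjusted over all genes in the pair of tissues), in 16 of 57 combinations, where 12.8% to 65.2% of all genes differed in the pairs of tissues, so that the count itself does not set these genes apart. On the log2 scale, the change of Npr3 in the heart exceeded that in the cerebellum by 0.77, in the muscle by 0.73, in the lung by 0.46 and in the kidney by 0.43. With the number of detected genes as a further term in each tissue, the change of Npr3 was smaller in the heart than in the lung. The differences between tissues were not tested with that term. The change of Corin in the heart exceeded that in the cerebellum by 0.70 and in the kidney by 0.39. For Npr1 the kidney exceeded the muscle by 0.45, while the difference was -0.43 for lung minus kidney, -0.39 for heart minus kidney and -0.39 for liver minus kidney. Kidney and cerebellum were not told apart for Npr1. For Npr2 the lung exceeded the liver by 0.32 and the muscle by 0.18. For Nppa the liver exceeded the cerebellum by 2.08 and the muscle by 1.44, and the difference was -1.23 for lung minus liver and -1.10 for heart minus liver; cardiomyocyte markers moved with Nppa in the liver, and their part in these differences was not tested. Nppb and Nppc gave no difference past the threshold.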

How the results depend on the processing

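The 7 changes with IH became 4 with the number of detected genes as a term and 4 to 12 without 1 replicate number, and the 3 past 1.5-fold became 5 with a pseudocount of 0.1 and 1 to 4 without a number. The 2 rhythms became 1 on TPM as deposited, 5 with a mean of at least 1 TPM, 0 by the rank test and 0 to 1 without a number. The 16 differences between tissues became 5 to 27 without a number. The count of cosine differences, 0, held under every alternative run. That of neighbouring tissues that differed, 28, held with scaling over all tissues and with pseudocounts of 0.1 and 1. It was not run with libraries left out. With the replicate number as a block the counts were 7, 3, 9 rhythms, 0 and 16; the 7 sets gained were Npr1, Npr2 and Npr3 of the normoxia kidney, Npr3 of the IH kidney, Npr1 of the IH lung, and Npr1 and Npr2 of the IH muscle. Of 144 same-numbered pairs 54 were over r = 0.1, which does not pair the samples, though in the liver 16 of 24 were (median r 0.224, against -0.12 for other numbers) and in the muscle 12 of 24. The block changed no other call. Leaving out the hearts of number 2 at 7:30, chosen after seeing the data, left 7 and 3.

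Of the values of single pairs under alternatives, 381 kept their direction and side of the threshold. A further 31 turned direction, 15 passed only under the alternative and 14 passed only in the main fit. Part of the 381 was fixed in advance. Leaving out hearts, or doubted libraries of the liver and cerebellum, could not change the fits of other tissues. The direction turned, on the log2 scale, with detected genes as a term for heart Corin (-0.24), Nppa (-0.17) and Npr1 (-0.36) and lung Npr1 (0.10). With the cardiac marker sum, taken in TPM as deposited, it turned for heart Npr1 (-0.0079), lung Nppa (-0.80), liver Nppb (-0.24) and Npr1 (-0.12), muscle Npr1 (0.0079) and cerebellum Nppa (0.0619), Nppb (0.10) and Npr3 (0.11). On TPM as deposited it turned for heart Npr2 (0.086), lung Npr1 (0.28), liver Npr1 (-0.10) and muscle Nppa (0.0354), Npr1 (0.0488) and Npr2 (0.0443), and without 2 doubted libraries for liver Npr1 (-0.0374). Without 1 number the values ran from -0.138 to 0.14 for heart Npr1, -0.154 to 0.0401 for heart Npr2, -0.187 to 0.469 for lung Nppa, -0.0843 to 0.0248 for lung Npr1, -0.0232 to 0.0399 for liver Npr1, -0.022 to 0.112 for kidney Npr2, -0.142 to 0.0345 for muscle Nppa, -0.081 to 0.0223 for muscle Npr1, -0.295 to 0.0301 for muscle Npr3, -1.70 to 0.0507 for cerebellum Nppa and -0.476 to 0.035 for cerebellum Npr3. The cause was not tested for any of these. The depth of single libraries is unknown, which limits values near 0 TPM.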
